A study of Mus musculus with 6 samples.

Results

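Adipose tissue genes in whole mouse lung were followed through 9 genes: Adipoq, Retn, Cidec, Cidea, Plin1, Lep, Ucp1, Cfd and Fabp4. The members were all probe sets whose only gene symbol in the platform annotation was one of these names, and 10 of the 45037 probe sets on the array met this, standing for 7 of the 9 genes. Fabp4 had 4 probe sets and Adipoq, Retn, Cidec, Cidea, Lep and Ucp1 had 1 each. No probe set was listed under Plin1 or Cfd in that annotation, so both genes are named here without values.

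The lungs came from mice in which a dominant-negative form of the bone morphogenetic protein receptor BMPR2 (dnBMPR2) can be switched on from a smooth muscle promoter (SM22), and from control mice. Each of the 6 arrays held RNA pooled from 3 mice, and females and males were pooled apart, giving a female and a male pool in each of 3 groups. These were control lungs, lungs after 1 week of dnBMPR2 activation and lungs after 8 weeks of it. The series description gives the controls as transactivator-only mice and says that the other mice had elevated right ventricular pressure at death. The male control is labelled as carrying SM22-rtTA only, whereas the female control is labelled by sex and the FVB/N strain alone. The labels give no age, and no inducer treatment or time for the controls. Transgene, time and any difference in handling therefore cannot be told apart.

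Adipocytes store fat in lipid droplets and release hormones. Adipoq encodes adiponectin, Lep leptin and Retn resistin, all 3 secreted mainly by white adipocytes in mice. Cidec and Plin1 encode proteins on the lipid droplet, Cfd the complement protease adipsin, and Fabp4 a fatty acid carrier that is also made by capillary endothelium and macrophages. Ucp1, the uncoupling protein that makes heat, and Cidea mark brown fat. Fat depots lie around the heart, the great vessels and the mediastinum, next to the root of the lung.

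To show the regulatory sequence behind the genes that carried signal, and of leptin, which did not, the promoter windows of 4 members are given below, from 250 bases before to 50 bases after the annotated start (RefSeq, GRCm38.p6). They are written 5′ to 3′ on the gene's own strand. Capitals mark matches on either strand to the nuclear receptor half-site AGGTCA, the C/EBP core TTGCNNAA, the TATA box TATAAA or the CCAAT box CCAAT. The windows lie at chr16:23146286-23146585 (Adipoq, plus strand), chr8:3655520-3655819 (Retn, plus strand), chr6:113435711-113436010 (Cidec, minus strand, the outer of 2 annotated starts) and chr6:29059971-29060270 (Lep, plus strand).
Adipoq: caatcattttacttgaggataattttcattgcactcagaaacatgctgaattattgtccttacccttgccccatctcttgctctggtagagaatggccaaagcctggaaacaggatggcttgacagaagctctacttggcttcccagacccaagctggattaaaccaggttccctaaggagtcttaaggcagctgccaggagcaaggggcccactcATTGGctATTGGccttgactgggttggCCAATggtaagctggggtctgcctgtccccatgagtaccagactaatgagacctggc
Retn: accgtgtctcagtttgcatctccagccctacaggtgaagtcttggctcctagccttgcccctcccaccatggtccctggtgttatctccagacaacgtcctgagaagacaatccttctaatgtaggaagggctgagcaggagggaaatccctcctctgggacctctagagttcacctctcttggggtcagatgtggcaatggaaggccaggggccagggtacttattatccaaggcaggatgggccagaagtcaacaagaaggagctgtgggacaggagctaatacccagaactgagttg
Cidec: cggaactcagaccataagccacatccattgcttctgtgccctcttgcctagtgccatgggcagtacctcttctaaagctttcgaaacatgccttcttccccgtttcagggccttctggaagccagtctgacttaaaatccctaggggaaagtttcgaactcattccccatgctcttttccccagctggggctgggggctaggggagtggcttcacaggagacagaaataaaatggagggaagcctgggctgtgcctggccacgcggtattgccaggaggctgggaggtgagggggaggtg
Lep: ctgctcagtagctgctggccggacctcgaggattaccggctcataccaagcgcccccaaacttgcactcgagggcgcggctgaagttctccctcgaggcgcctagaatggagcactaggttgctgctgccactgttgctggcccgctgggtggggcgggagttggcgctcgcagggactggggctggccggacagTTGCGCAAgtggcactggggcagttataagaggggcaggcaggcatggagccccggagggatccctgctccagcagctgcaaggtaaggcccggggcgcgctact

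Windows of 7 of the 9 genes were matched by symbol; Cidea and Fabp4 are named only. Adipoq held 3 matches to CCAAT, beginning 34, 27 and 7 bases before the start. Lep held the palindrome TTGCGCAA, a match to the C/EBP core on both strands, 55 bases before its start. The Retn window and the outer Cidec window held no match to the 4 motifs. The second Cidec window, at chr6:113434715-113435014, held 1 C/EBP core upstream of its start, Plin1 held 2, and Ucp1 held the half-site. CCAAT occurred in 37.4% of the 32851 promoter windows of this length, the half-site in 16.3%, the TATA box in 13.6% and the C/EBP core in 10.8%. A match describes letters only and was not related to the measured levels.

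The values below are log2 intensities after quantile normalization, in which every array was given the same distribution. Values under the 20th percentile (15.5, log2 3.95) were raised to that floor, so a value at the floor is an upper limit. Lung identity was clear on each array. The secretory airway gene Scgb1a1 was at 13.36 on all 6, the top of the scale. Quantile normalization gives the top probe set of every array the same value, so this equality says nothing of differences between pools. The alveolar type 1 gene Ager was between 12.93 and 13.08 at its brightest probe set. Xist was at 9.76 to 11.05 in the 3 female pools and at 5.07 to 5.80 in the 3 male pools, as the labels give. The female 8 week pool, which also had the lowest Adipoq, was the lowest female pool at all 3 Xist probe sets (9.76 against 11.05 and 10.73 at the main one, 8.90 against 11.22 and 10.87, and 7.22 against 8.45 and 7.83, for control and 1 week). What this shares with the adipose values was not tested. Bmpr2 itself had 3 probe sets, with changes of −0.44 to −0.08 at 1 week and −0.93 to 0.01 at 8 weeks, none of which passed in limma (adjusted p = 0.107 to 0.995). Whether these probe sets read the transgene is not known from the sources used here.

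The 7 genes split by level. Fabp4 was by far the most intense at its 2 brighter probe sets (9.00 to 10.07 and 8.77 to 10.10), above 84.3% to 94.3% of probe sets on its array. Adipoq, Retn and Cidec lay above 51.0% to 79.7% of probe sets, apart from Adipoq in the female 8 week pool (30.4%). Cidea, Ucp1 and Lep were dim: 5.15 at most for Cidea, 4.88 for Ucp1 and 4.02 for Lep. Leptin, a defining white adipocyte hormone, was at the lowest deposited value of 10 in 4 of the 6 pools and at 16.2 and 15.7 in the other two. Intensities of different probe sets depend on the probes, so this order is one of signal and not of transcript number.

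**Figure D1:**
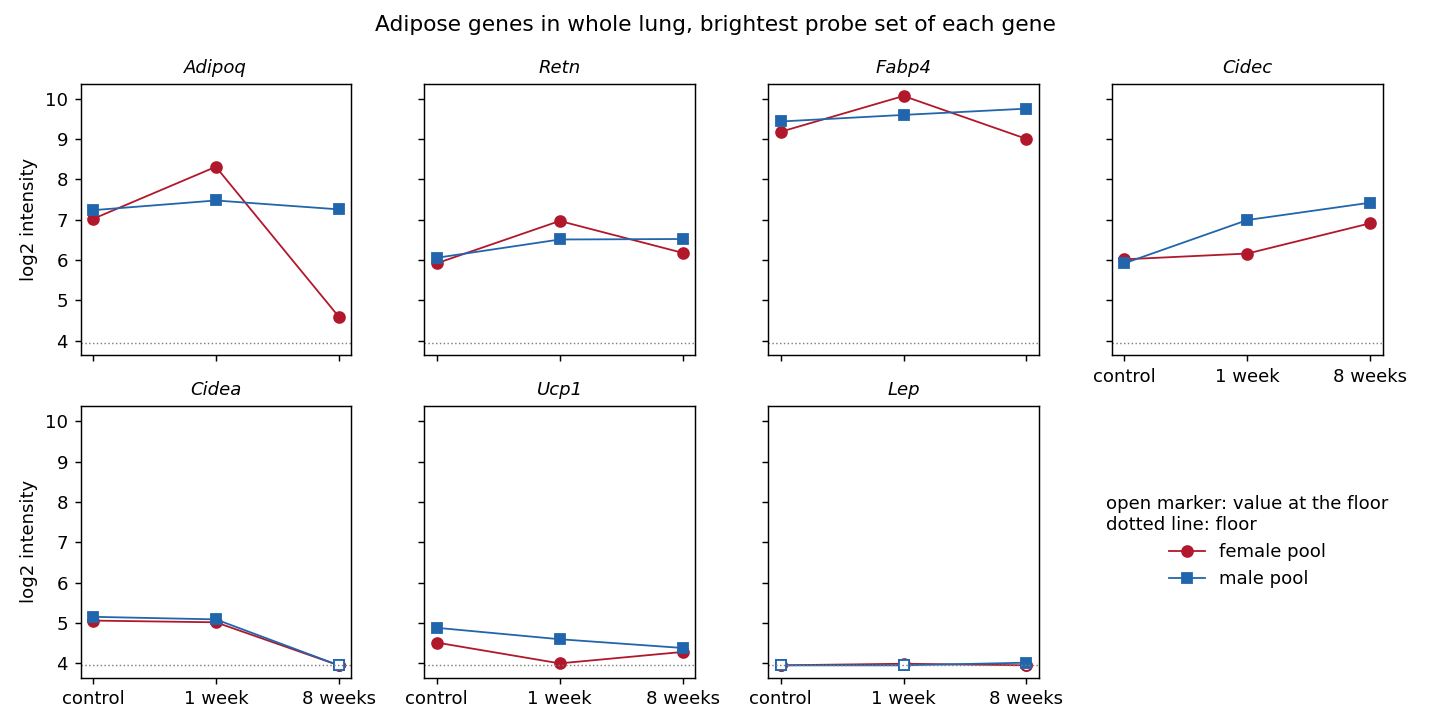
Log2 intensity (vertical axis) of the 7 adipose genes with a probe set in control, 1 week and 8 week pools (horizontal axis), with circles for female and squares for male pools and lines joining pools of a sex. Adipoq drops to 4.60 in the female 8 week pool and peaks at 8.31 in the female 1 week pool, Cidec is highest at 8 weeks, and both 8 week Cidea values are at the floor (dotted line, open markers).

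Probe sets were tested where their mean exceeded 5.19, the 40th percentile of all values, which kept 26763 of 45037. This left 5 of the 10 member probe sets, from 4 genes: Adipoq, Retn, Cidec and Fabp4 (2 probe sets). Cidea, Lep, Ucp1 and the 2 dimmer Fabp4 probe sets fell below. Tests were made with limma on group and sex over all 6 arrays, with Benjamini-Hochberg adjustment over all probe sets tested and a threshold of 0.05. With 2 pools a group there were 2 residual degrees of freedom, and the labels do not say how mice were assigned to pools. The same control pools serve both durations, so the changes at 1 week and 8 weeks share them.

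Adiponectin varied more than almost any other transcript. Adipoq was at 7.02 in the female and 7.24 in the male control pool, at 8.31 and 7.48 at 1 week, and at 4.60 and 7.26 at 8 weeks. In 4 of the 6 pools it lay within 0.46 of each other, and the 2 exceptions were both female: the 1 week pool, above all others, and the 8 week pool, below all others. In intensity as deposited this was 324 against 23.7, while the other pools ran from 140 to 175.

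The span of 3.72 on the log2 scale was wider than that of 99.8% of tested probe sets. Between the female pools Adipoq was 13.1-fold higher at 1 week than at 8 weeks, and 5.37-fold higher in the control than at 8 weeks. The male pools moved little, by 0.24 from control to 1 week and by 0.02 from control to 8 weeks.

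No group change of Adipoq passed. It stood at 0.77 ± 0.83 (± standard error, limma; 95% interval −1.40 to 2.93, adjusted p = 0.984) at 1 week and at −1.20 ± 0.83 (−3.37 to 0.96, adjusted p = 0.432) at 8 weeks. From 1 week to 8 weeks the difference was −1.97 ± 0.83 (adjusted p = 0.299), with both 8 week pools below both 1 week pools. The sign against control depended on a single pool each time. Without the female 8 week pool the 8 week change was 0.28, and without the female 1 week pool the 1 week change was −0.37. Without the male 8 week pool the change at 8 weeks was −2.69 (adjusted p = 0.0401 in limma), a fit that rests on the female 8 week pool alone and takes its spread from the other groups.

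Resistin followed adiponectin in the female 1 week pool but not in the female 8 week pool. Retn was at 5.92 and 6.06 in the female and male controls, 6.97 and 6.51 at 1 week, and 6.18 and 6.52 at 8 weeks. The 4 transgenic pools all lay above both controls. The group mean was 5.99 ± 0.10 (SD, n = 2) in controls and 6.74 ± 0.33 at 1 week. The difference of 0.75 ± 0.23 (standard error; 1.68-fold, interval 0.15 to 1.35) did not pass in limma (adjusted p = 0.891). At 8 weeks the difference from control was 0.36 ± 0.23 (adjusted p = 0.395).

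The fatty acid carrier Fabp4 had its extremes in the same female pools as adiponectin, over a smaller span. At its brightest probe set the values were 9.18 and 9.44 in the female and male controls, 10.07 and 9.60 at 1 week, and 9.00 and 9.75 at 8 weeks. The 1 week pools lay above the controls, and the 8 week pools lay on either side of them. The change was 0.53 ± 0.31 at 1 week (limma, adjusted p = 0.937) and 0.07 ± 0.31 at 8 weeks (interval −0.73 to 0.87, adjusted p = 0.91). The second bright probe set gave 0.59 ± 0.38 and 0.04 ± 0.38, and its profile across the pools differed from the first by a root mean square of only 0.08.

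The other Fabp4 probe sets were dim, at 4.14 to 4.83 and at 3.95 to 4.84, and carried no such profile. Capillary endothelium and macrophages, which also make Fabp4, were read through marker lists. The summed intensity of 15 capillary endothelial genes was 38620 to 40120 in the controls, 37950 in both 1 week pools and 32140 to 34280 at 8 weeks. That of 13 alveolar macrophage genes was 6364 to 8350, 6936 to 9010 and 14140 to 16360. It was highest at 8 weeks, where Fabp4 was at 9.00 in the female and 9.75 in the male pool. The part of these cells in the Fabp4 signal was not tested.

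Cidec had a different profile. The lipid droplet gene was at 6.02 and 5.92 in the female and male controls, 6.16 and 6.99 at 1 week, and 6.91 and 7.42 at 8 weeks. Both 8 week pools exceeded both controls, by 0.89 in females and 1.50 in males, and the male 1 week pool already lay near the 8 week values. The mean of 5.97 ± 0.07 (SD, n = 2) in controls and 7.17 ± 0.36 at 8 weeks differed by 1.20 ± 0.25 (standard error; 2.29-fold, interval 0.55 to 1.85). Its adjusted p of 0.102 in limma missed the threshold. With trend and robust variance moderation the adjusted p was 0.0408. The 1 week difference was 0.61 ± 0.25 (adjusted p = 0.9), 0.14 in females and 1.07 in males. Directions of Adipoq, Retn and Cidec against control were the same with arrays as deposited or centred on their medians. Fabp4 at 8 weeks turned to −0.05 as deposited.

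**Figure D2:**
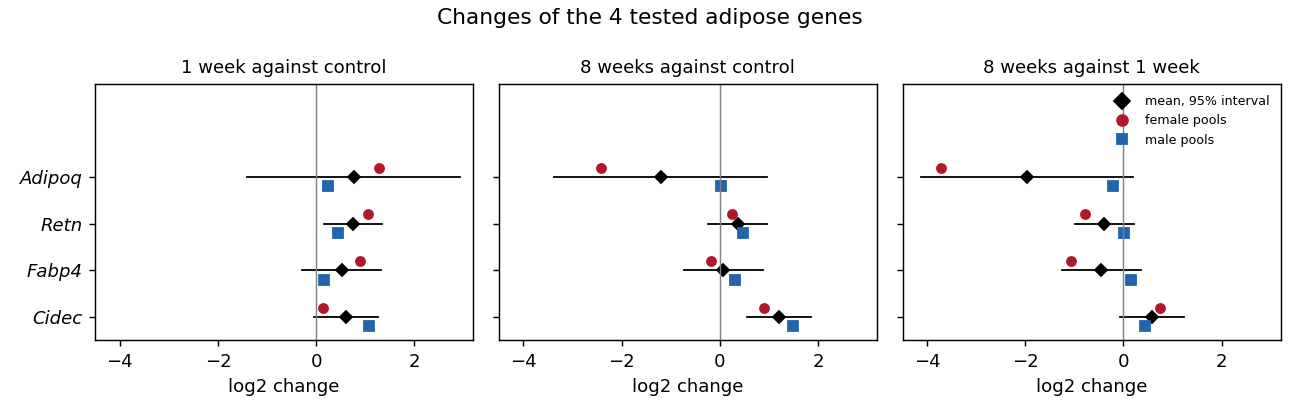
Log2 change (horizontal axis) of Adipoq, Retn, Fabp4 and Cidec in the 3 group comparisons. Diamonds with lines are limma means with 95% intervals, circles are the change between female pools and squares that between male pools; the Adipoq pools part most, at −2.42 and 0.02 for 8 weeks against control.

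The brown fat genes were near the limit of the arrays. Cidea was at 5.06 and 5.15 in the female and male controls, 5.02 and 5.09 at 1 week, and at the floor of 3.95 in both 8 week pools. In deposited intensity this was 34.9, 37.4, 33.6 and 34.0 against 10 and 14.4. The 4 earlier pools lay within 0.14 of each other and neither 8 week pool reached them.

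Cidea was therefore at least 2.23-fold lower at 8 weeks than in controls and at least 2.15-fold lower than at 1 week, with values at the floor taken at it. The pattern of both 8 week pools at the floor and the other 4 above it held for 0.511% of all 45037 probe sets. In a fit without the filter on dim probe sets the change was −1.16 with an adjusted p of 0.161 in limma. Values at the floor have no spread, so that p understates the error. The male 8 week pool was at the floor as well, although in that pool Adipoq (7.26) was at the level of the controls (7.02 and 7.24).

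Ucp1, the defining gene of brown fat, was at deposited intensities of 23.1 and 30.7 in the female and male controls, 16.3 and 24.2 at 1 week, and 19.5 and 19.9 at 8 weeks. The 1 week range overlapped that of the controls, both 8 week pools lay below both controls, and all normalized log2 values were within 0.93 of the floor. Lep was between 3.95 and 4.02 throughout and allowed no comparison. In these bulk samples, fewer cells of a type and less RNA per cell cannot be told apart, for these genes and for all those above.

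Across the members, 0 of 5 tested probe sets passed at 1 week, where 0% of all 26763 tested did (smallest adjusted p 0.556), and 0 of 5 passed at 8 weeks, where 0.631% (169) did. For 8 weeks against 1 week the members again gave 0, with 0% of all probe sets passing. At an unadjusted p below 0.05 there was 1 member probe set at 1 week (Retn), 1 at 8 weeks (Cidec) and 0 between the durations, beside 5.53%, 23.1% and 18.6% of all tested probe sets. Both 1 week pools lay above both controls for 4 of the 4 tested genes, a pattern found in 12.5% of all tested probe sets. Both 8 week pools lay above both controls for 2 of the 4 (Retn and Cidec), against 23.0%. Both 8 week pools lay below both 1 week pools for Adipoq alone, against 17.7%. The median change of the 4 genes was 0.68 at 1 week and 0.22 at 8 weeks, beside medians of 0.03 and 0.08 over 13130 genes. The filter on low values keeps only the brighter members, so these counts cover 4 of the 9 genes.

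The sexes differed in which pool was extreme. The female 1 week pool was the highest of the 6 for 3 of the 4 tested genes (Adipoq, Retn and Fabp4), where it was the highest for 13.0% of tested probe sets. The female 8 week pool was the lowest for 2 of the 4 (Adipoq and Fabp4), against 18.3%. It was lower than every other pool by at least 0.5 for 3.84% of probe sets, and for Adipoq the gap was 2.42. As a mean over the 3 female and 3 male pools, Adipoq differed by −0.68 ± 0.68 (female minus male, limma, adjusted p = 0.539), Cidec by −0.41 ± 0.20 (adjusted p = 0.249), Fabp4 by −0.18 ± 0.25 and Retn by −0.01 ± 0.19. None of these passed, while 8.39% of all probe sets did. The interaction of transgene and sex, with both durations together, was −0.70 ± 2.17 for Adipoq and passed for 0% of probe sets, members included (smallest adjusted p 1.00). Whether the sexes differ at a given duration could not be tested, as each sex had 1 pool in each group.

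The 10 genes closest to adiponectin across the pools included 3 of the cardiac muscle list (Myl4, Sln and Myl7). Closeness was the root mean square difference between log2 profiles over the 6 arrays after subtracting each gene's own mean, among 13129 other genes at their brightest tested probe set. The median gene lay at 1.18 and a gene with no variation would lie at 1.14. In order, the 10 nearest were myoglobin (Mb, 0.26), the muscle protein gene Smpx (0.33), carbonic anhydrase 3 (Car3, 0.35), which is abundant in fat and muscle, the atrial myosin light chain Myl4 (0.39) and the atrial calcium pump regulator sarcolipin (Sln, 0.41). Next came the second atrial light chain Myl7 (0.43), cardiac troponin C (Tnnc1, 0.46), the secretory airway gene Scgb3a1 (0.49), Tmem45b (0.49) and Tmem182 (0.50). All 10 were lowest in the female 8 week pool, a pattern that choosing genes by nearness to Adipoq favours. None of the 10 passed at 1 week or 8 weeks in limma. The nearest, Mb, was at 9.04 and 9.49 in controls, 10.09 and 10.06 at 1 week, and 6.57 and 9.23 at 8 weeks, female before male. Adipoq differed from them at 1 week: 7 of the 10 were highest in the male 1 week pool and 3 in the female one. The measure gives likeness over 6 points only and says nothing of shared cells or control.

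Of the other members, Fabp4 lay nearest to adiponectin, at 0.87 with 1.48% of genes nearer, followed by Retn at 1.00 (5.77% nearer). Both were nearer than a gene with no variation would be, and Cidec, at 1.41 (94.4% nearer), was farther. Retn and Fabp4 lay close together, at 0.17. The genes nearest to Cidec, looked up after its values were seen, were not compared with any list. They were the cyclins Ccna2 (0.11) and Ccnb2 (0.14), Anln (0.15), Pdgfrl (0.16), Ung (0.16), Pclaf (0.17), Lgi2 (0.17), Hddc3 (0.18), the proliferation marker Mki67 (0.19) and the ribonucleotide reductase subunit Rrm2 (0.19). A gene with no variation would lie at 0.57. All 10 were highest in the male 8 week pool, like Cidec, with 8 week changes of 0.88 to 1.46, none of which passed. Choosing genes by nearness to Cidec favours that pattern. Ccna2 was at 6.25 and 6.05 in controls, 6.45 and 7.24 at 1 week, and 7.35 and 7.88 at 8 weeks.

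**Figure D3:**
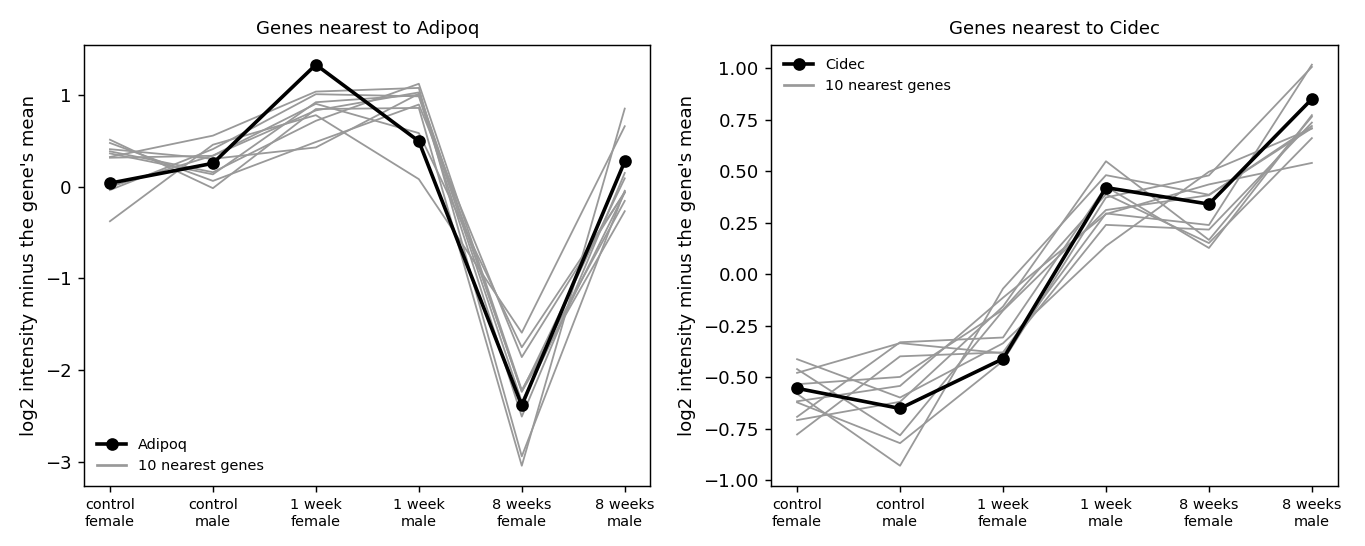
Log2 intensity minus each gene's own mean (vertical axis) in the 6 pools (horizontal axis) for Adipoq and Cidec (black) and the 10 genes nearest to each (grey). The genes near Adipoq all fall in the female 8 week pool, and those near Cidec are all highest in the male 8 week pool. Choosing genes by nearness favours both patterns.

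Markers of other tissues that a whole-lung sample can hold were set beside the adipose genes. For 14 cardiac muscle genes, all tested, the summed intensity was 13880 to 14220 in controls, 16180 to 19790 at 1 week, 3288 in the female 8 week pool and 7790 in the male one. The list had a median of −1.66 at 8 weeks (−2.58 between females, −0.80 between males) with 0 of 14 passing over all probe sets; the lowest were the giant sarcomere protein titin (Ttn, −3.06), the atrial and ventricular myosin Myh6 (−2.63), Ryr2 (−2.53), through which calcium leaves the store, and Tcap (−2.03). In 2 of the 14, Myh7 (0.32) and Nppa (0.48), both named here after their values were seen, the change was positive. Without the female 8 week pool the list median was −0.85. The female 8 week pool was the lowest for 11 of the 14 cardiac genes, as it was for Adipoq, against 18.3% of tested probe sets. In the male 8 week pool 11 of the 14 lay below both controls, whereas Adipoq did not. The share of all probe sets with that second pattern was not counted. None of the 14 was at the floor on every array, but Nppa, the atrial peptide gene, was at the floor in all 3 female pools.

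Skeletal muscle genes summed to 1243 to 1419 in controls, 1491 to 2286 at 1 week and 829.6 to 1128 at 8 weeks, with 7 of 16 tested and medians of 0.42 at 1 week and −0.53 at 8 weeks. Mesothelial genes summed to 8840 to 9744, 9842 to 11570 and 8878 to 8891, with 13 tested and medians of 0.21 and −0.04. The sums of the cardiac, skeletal muscle and mesothelial lists were highest in the male 1 week pool, while Adipoq, Retn and Fabp4 were highest in the female pool. A sum weighs the brightest genes most, such as Krt8, Krt18 and Krt19 (10.36 to 11.12) in the mesothelial list. In the skeletal muscle list Myh1, Myh2, Myh4, Tnnt3, Mylpf and Actn3 fell below the filter. The genes in these last sentences are named after their values were seen. Thymus and lymph node genes summed to 350.7 to 517.3, 374.6 to 426.2 and 432.4 to 482.1, cartilage genes to 222.7 to 298.1, 250.8 to 285.6 and 307.5 to 423.2, and peripheral nerve genes to 6133 to 6157, 6211 to 6339 and 5836 to 5841. Of these lists 4, 4 and 5 genes were tested, with medians at 8 weeks of −0.01, 0.65 and 0.14. In the transgenic comparisons with control, 0 genes of these lists passed. Between the sexes, Nppa was at least 10.6-fold lower in females, with females taken at the floor (limma, adjusted p = 0.0133). The female values at the floor have no spread, so that p understates the error. The mesothelial gene Rspo1 (−0.82) and the cartilage genes Acan (−0.99) and Col11a2 (−0.89) were also lower in females (limma, adjusted p = 0.0271 to 0.0357). Of all tested probe sets 8.39% passed between the sexes. The amount of each of these tissues in the pools was not recorded in the labels, and a sum of marker intensities does not measure it. The part of these tissues in the adipose signal was not tested.

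**Figure D4:**
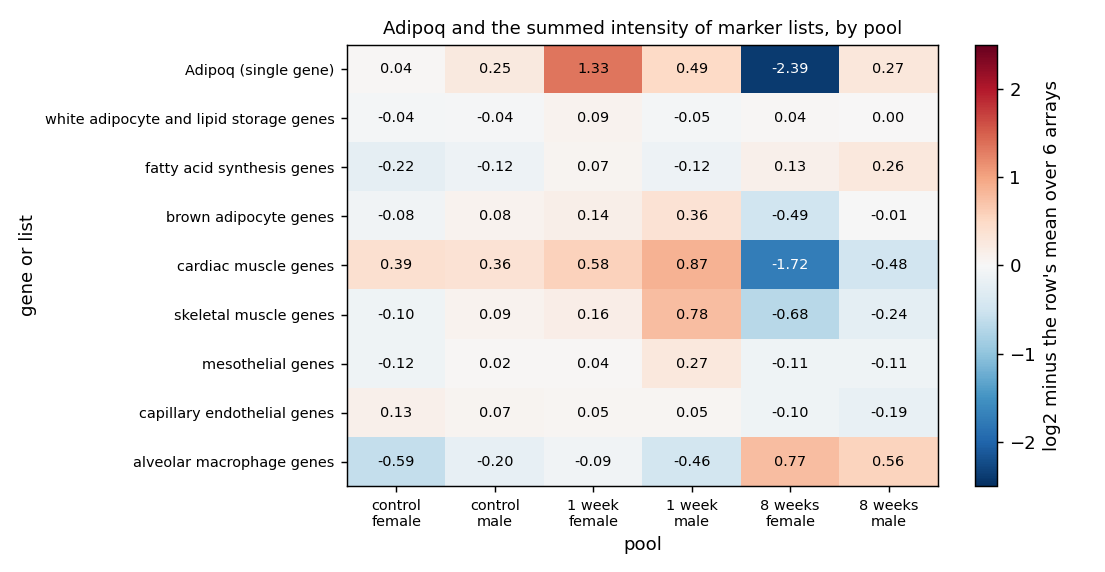
Log2 summed intensity of 8 marker lists, and log2 intensity of Adipoq, each minus its mean over the 6 pools (rows are the gene or list, columns the pools). In the female 8 week pool Adipoq stands at −2.39 and cardiac genes at −1.72, against 0.04 for the white adipocyte and lipid storage list. In the male 8 week pool they stand at 0.27, −0.48 and 0.00. A list's sum weighs its brightest genes most, so the white adipocyte row need not show its dimmer genes.

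Other genes of fat metabolism varied in how far they followed adiponectin. Of 30 white adipocyte and lipid storage genes, 28 had a probe set and 24 were tested, and 0 passed at 1 week or 8 weeks. Their median change was 0.17 at 1 week and −0.03 at 8 weeks, beside 0.03 and 0.08 over all genes, and their summed intensity was 16530 to 16560 in controls, 16430 to 18130 at 1 week and 17030 to 17470 at 8 weeks. The female 1 week pool was the highest for 7 of the 24 (29.2%), against 13.0% of tested probe sets, and the female 8 week pool the lowest for 7 (29.2%), against 18.3%. Some of these genes are active in lung cells too, such as, chosen after their values were seen, the lipoprotein lipase gene Lpl (10.68 to 10.98) and the fatty acid receptor Cd36 (11.39 to 11.81). Bright genes such as these weigh most in the summed intensity, and dimmer ones little.

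A few were closer to Adipoq, and are named here after their values were seen. Pck1, which supplies glycerol for fat storage in adipocytes, had 0.19% of genes nearer to Adipoq. It was at 5.68 and 6.05 in controls, 6.39 and 5.61 at 1 week, and 4.44 and 5.92 at 8 weeks, so its extremes were in the same female pools. The lipogenic gene Thrsp (0.518% nearer) was at 7.80 and 7.71, 9.00 and 8.27, and 7.19 and 7.97. Plin4, a lipid droplet protein (1.10% nearer), was at 7.17 and 7.43, 7.60 and 7.40, and 6.51 and 6.93. The adipogenic factor Pparg did not do this, at 7.75 and 7.89, 7.38 and 7.89, and 8.11 and 7.78. Cebpa, Plin2 and Mest, also named after their values were seen, had 87.1%, 92.6% and 89.6% of genes nearer to Adipoq. Both sexes had higher values of these genes at 8 weeks than in controls, with changes of 0.68, 0.76 and 0.70. Between the sexes 1 of the 24 tested genes of the list passed, against 8.39% of all tested probe sets. It was the lipid synthesis enzyme Agpat2, higher in females by 0.72 (limma, adjusted p = 0.0375).

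Of 12 fatty acid synthesis genes 0 passed, with medians of 0.11 at 1 week and 0.26 at 8 weeks. Of 19 brown adipocyte genes, 11 were tested and 0 passed, with medians of 0.24 and −0.19. Their summed intensity was lowest in the female 8 week pool, at 1575 against 2098 to 2848 elsewhere. That pool was the lowest for 5 of the 11, where it was the lowest for 18.3% of tested probe sets. The 5 included Cox7a1 (6.22) and Fabp3 (8.11), both of which muscle also expresses. The change at 8 weeks against control was positive for 4 of the 11, among them the deiodinase Dio2, Ucp3 (0.96) and Elovl3 (0.71). All genes of this list named here were chosen after their values were seen. Dio2 was at 5.40 and 4.85 in controls and at 6.56 and 6.69 at 8 weeks (1.50 ± 0.33, adjusted p = 0.106).

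The receptors through which adiponectin and leptin act were well detected and none of them passed. The adiponectin receptors Adipor1 (11.02 to 11.49) and Adipor2 (9.69 to 10.12) changed by 0.14 and 0.06 at 1 week and by 0.17 and 0.11 at 8 weeks. The adiponectin-binding cadherin Cdh13 stood at 0.24 and −0.23, and the leptin receptor Lepr at −0.15 and −0.41 (adjusted p = 0.19 at 8 weeks).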

How the data were processed

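Whole-lung RNA was hybridized to 6 arrays, 2 pools in each of 3 groups. The authors deposited linear intensities, the smallest being 10, as read from the values. Biotin-labelled antisense RNA was hybridized, per the labels' protocols. Summarisation and scaling by the authors, and the genome build, are not given in the sources used here. Median deposited intensity ran from 50.49 to 63.41, and 11.1% to 12.5% of an array's probe sets had that smallest value. From these intensities, arrays were quantile normalized, floored at the 20th percentile and log2 transformed, and probe sets with a mean above the 40th percentile were tested. Of 45037 probe sets, 34945 had 1 symbol, 932 several and 9160 none. limma 3.58.1 (R 4.3.3) fitted group and sex over all arrays (prior degrees of freedom 2.77), and a second model transgene, sex and their interaction. P-values were Benjamini-Hochberg adjusted over all tested probe sets. A gene was read at its brightest probe set. The fit was tested on simulated data. Promoters came from RefSeq (GRCm38.p6). Figures used matplotlib 3.10.9 (Python 3.11.15).

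Members and the 12 gene lists were chosen with earlier results of these data known. Named were every member, list genes that passed, up to 4 genes of a list whose median lay over 0.3 from 0, Bmpr2 and the 10 genes nearest to Adipoq. The 4 adipokine receptors are named as a whole list, and lung and sex genes as checks; other names are said to be chosen after their values were seen. Alternatives were no normalization, median centring, log2(value + 16) with no floor, the 40th percentile as floor, no filter or one at the 60th percentile, no sex term, only the arrays compared, trend and robust variances, each array left out, the mean of a gene's probe sets, and no suffixed probe sets. The number of arrays limits the precision.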

Additional observations from a re-analysis of the deposited data

Results flagged for a closer look

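Changes between the female pools and between the male pools had opposite signs for several members at their brightest probe set. With 1 pool of each sex in a group these differences were not tested. The share of all probe sets with opposite signs was not counted. For Adipoq at 8 weeks against control the change was −2.42 in females and 0.02 in males, a difference of −2.44. For Fabp4 it was −0.18 and 0.32 at 8 weeks against control (difference −0.49), and −1.06 and 0.16 at 8 weeks against 1 week (difference −1.22). For Retn at 8 weeks against 1 week it was −0.79 and 0.01 (difference −0.80). For Ucp1 at 8 weeks against 1 week it was 0.28 and −0.22 (difference 0.50), at levels close to the floor. In males the Adipoq and Retn values were near 0, so only the female pools moved by an amount that could be read.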

How the results depend on the processing

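The count of member probe sets passing at 8 weeks was 0, and 1 with trend and robust variances (Cidec) and 0 to 1 with an array left out (1 being Adipoq without the male 8 week pool). Over all probe sets, the count at 8 weeks was 169, and became 702 with arrays centred, 452 as deposited, 541 with the filter at the 60th percentile, 596 with log2(value + 16), 1891 with trend and robust variances, and 0 with the floor at the 40th percentile, no filter, no sex term or only the arrays compared. It ran from 0 to 1010 with an array left out. Of those calls 33.7% were higher, against 16.6% as deposited and 45.3% centred, where the median probe set shifted by −0.13 and 0.14. Trend and robust variances gave 3 at 1 week. For 8 weeks against 1 week they gave 747, and the filter at the 60th percentile 72. Female against male gave 2245, and 0 with no filter, 4162 with trend and robust variances, 1454 without suffixed probe sets and 0 to 1259 with an array left out.

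The filter, the sex term, the arrays compared, the variance moderation and the removal of suffixed probe sets do not alter the size of a change. Under them only the adjusted p could differ, so the sign was bound to stay. Of 174 member changes under alternatives other than leaving out an array, 169 kept their sign and their side of the threshold and 4 reversed. These were Fabp4 at 8 weeks as deposited (−0.051) and Retn in females against males as deposited (0.019), centred (0.00037) and with log2(value + 16) (0.0014). Leaving out an array reversed 15 of 112. Adipoq then ran from −0.37 to 1.90 at 1 week, −2.69 to 0.28 at 8 weeks, −1.44 to 0.31 between the sexes and −2.55 to 1.16 for the interaction. Fabp4 ran from −0.36 to 0.50 at 8 weeks, −0.94 to 0.032 for 8 weeks against 1 week, −0.50 to 0.11 between the sexes and −0.42 to 0.65 for the interaction. Retn ran from −0.24 to 0.16 between the sexes and −0.20 to 0.59 for the interaction. Cidec stayed positive against control (0.22 to 0.99 at 1 week, 0.81 to 1.58 at 8 weeks). A fit without 1 array has a lone pool in its group, assumed to vary like the others. Without suffixed probe sets no value was left for Fabp4. No paired analysis was possible because the labels carry no replicate numbers, and sex was a term of the model instead. The causes were not tested.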
